A study of Capra hircus with 9 samples.

Results

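Uterus of Liaoning Cashmere goats (Capra hircus, a fibre breed) at day 19 was compared with uterus of the same breed at day 6, across all genes that the count table types as mRNA. The comparison rests on 6 of the 9 libraries of the series, 3 at each day, and the 3 day 16 libraries entered only the filter, the scaling and the shared estimate of the spread. Of 25671 gene rows, 20222 were of type mRNA, 17567 of these had a count in the 6 libraries, and 14530 passed the filter on low counts and were tested. The labels call both days peri-implantation and give no treatment, genotype, age or pregnancy status, nor the event from which days are counted. They name 3 tissues: uterus in the tissue field, testis in the treatment protocol and, in the series title, endometrial epithelium. Whether the libraries of a day stem from different animals is not stated, and the p-values then measure only how far these libraries differ, which may be technical.

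In ruminants the conceptus lies free in the uterus before it attaches, fed by secretions of the uterine glands. Its outer cells, the trophoblast, release interferon tau, which acts on the uterine lining, induces interferon-stimulated genes there and keeps the corpus luteum from regressing. Progesterone from the corpus luteum prepares the lining and later lowers the progesterone and estrogen receptors of its epithelium. The pathways described below belong to this setting.

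The libraries held 9551686 to 9798910 counts at day 6 and 10611186 to 11074693 at day 19, of which 92.9% to 96.2% fell on mRNA rows. Expression is given as CPM, counts set to a common library total after scaling by the trimmed mean of M-values, always for replicates 1, 2 and 3 in that order. Levels are not corrected for gene length, so each gene, and each sum over a gene list, is compared only with itself between libraries. In bulk RNA, fewer cells of a type and less RNA per cell cannot be told apart.

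Markers of uterine tissue were present on both days. The stromal fibroblast list (24 of 24 markers tested) summed to 37620 to 38320 CPM at day 6 and 24240 to 35630 at day 19, and 3 of its members rose, HOXA11, PCOLCE and MFAP5. The last lost its call without any one of the day 6 libraries (adjusted p = 0.0532, 0.0522 and 0.057). The smooth muscle list (20 of 21 tested) summed to 13190, 45830 and 36950 CPM at day 6 and to 36880, 39500 and 62450 at day 19, so that day 6 replicate 1 held less of it than any other library. The epithelial list (25 of 25 tested) summed to 2480 to 2978 CPM at day 6 and to 2022, 3798 and 2867 at day 19. EPCAM, an epithelial adhesion protein, stood at 186, 200 and 206 CPM at day 6 and at 210, 423 and 327 at day 19. Stromal and muscle markers were thus present beside epithelial ones, although the title names epithelium alone. Of 35 testis germ cell markers, 30 were in the table and 6 were tested. DAZL, SYCP3, TNP1 and ODF1, which act in germ cells, meiosis and the sperm, had no count in any of the 6 libraries. The list summed to 122 to 141 CPM at day 6 and 67.0 to 118 at day 19, mostly from ODF2 and AKAP4. The Sertoli and Leydig cell list had 2 of 13 members tested, and FSHR, the receptor of follicle-stimulating hormone, had no count. The erythrocyte list had no tested member, and its 8 members in the table summed to 0.6 to 2.4 CPM per library.

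Day 19 replicate 1 stood apart from replicates 2 and 3. Over the genes tested of every type, Spearman's rho of its log2 CPM was 0.894 with replicate 2 and 0.897 with replicate 3, whereas replicates 2 and 3 correlated at 0.983 and the day 19 replicate 1 library correlated at 0.945 to 0.963 with the day 16 libraries. These are descriptions over genes, which are not independent. By this measure the library labelled day 19 replicate 1 was closer to day 16 than to its own day. The count of calls in each list of mRNA genes is therefore also given without it, and it is shown on its own below. Whether it differs by biology, handling, library preparation or a mixed-up label was not tested, and each day 19 value of replicate 1 is that of the library so labelled.

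At day 19, 1932 genes were higher and 1542 were lower than at day 6, or 3474 of 14530 (edgeR quasi-likelihood test, p adjusted by Benjamini-Hochberg over the 16098 tested genes of every type and called under 0.05). These are 13.3% higher, 10.6% lower and 23.9% in either direction, the background against which the gene lists below are read. Of the called genes, 1326 rose and 1185 fell by at least 1 on the log2 scale, and 272 rose and 194 fell by at least 3. The log2 CPM of the 3 libraries of one day lay wholly to one side of those of the other in 5777 genes (39.8%), with 2950 above (20.3%) and 2827 below (19.5%), and 3390 of the called genes were among them. The median log2 fold change over all mRNA genes tested was 0.02. Without day 19 replicate 1, 8242 of 14755 genes were called (55.9%), with 4068 higher (27.6%) and 4174 lower (28.3%), and 3437 of the 3474 calls were kept in the same direction. Leaving out day 6 replicate 1, 2 or 3 gave 2085 calls of 14723 genes, 2001 of 14775 and 1821 of 14739. Leaving out day 19 replicate 2 or 3 gave 2215 of 14758 and 2387 of 14759. Each of these fits called fewer genes than the fit to all 9 libraries, so a smaller count in a list is not by itself particular to that list. The count was 2223 of 14227 with only the 6 libraries of these days in the fit (15.6%, with 8.76% higher and 6.87% lower). DESeq2 called 4640 (31.9%, with 17.5% higher and 14.5% lower). Counts in a list from another fit, such as without day 19 replicate 1 or with DESeq2, are read against the shares of that fit.

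**Figure D1:**
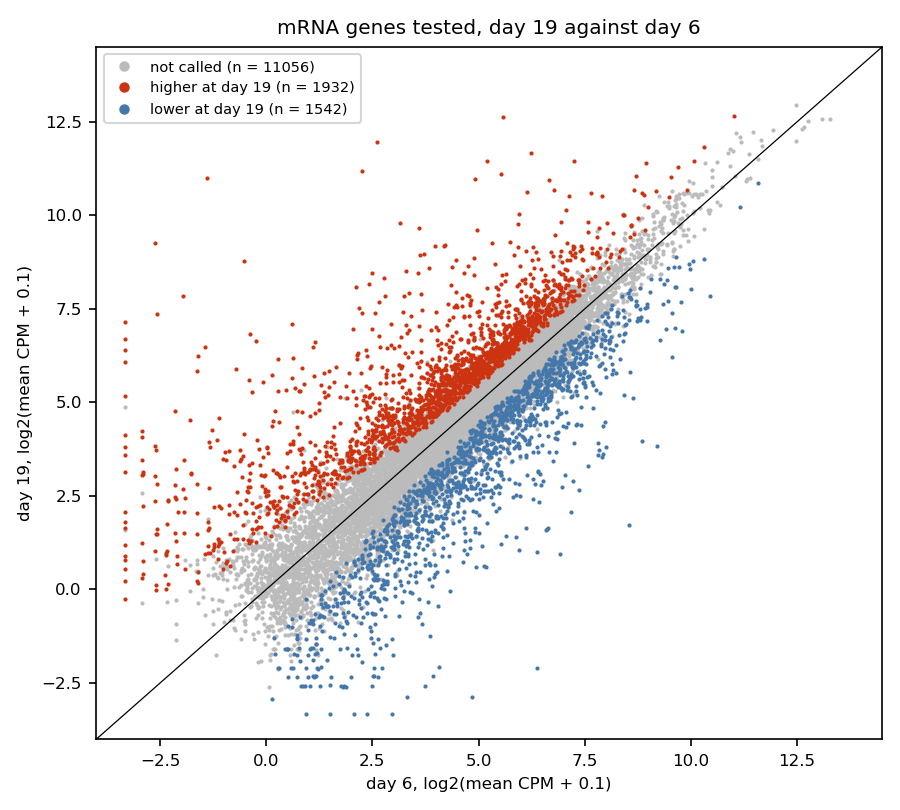
Mean expression of the 14530 mRNA genes tested, day 6 on the horizontal and day 19 on the vertical axis, both as log2 of the mean CPM of 3 libraries plus 0.1. Genes called higher (1932, red) lie above the diagonal line of equal expression, genes called lower (1542, blue) lie below it, and grey genes were not called.

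Among genes with a symbol, the largest fitted rises were those of 3BHSD, LGALS16, LGALS15 and SPINK7, which were near absent at day 6. The ranking took called genes without overlap between days and with average log2 CPM of 3 or more. Rows known only by a locus number were left out of it. With them kept in, 5 of the 10 largest rises and 3 of the 10 largest falls were locus rows, and LOC102188515, described with the trophoblast markers, had the largest rise (log2 fold change 13.46). LGALS15, a secreted galectin of the ruminant uterus, stood at 0.835, 0 and 0 CPM at day 6 and at 831, 3856 and 1397 at day 19. Its close relative LGALS16 had 2 counts in all at day 6 and stood at 348, 1122 and 363 CPM at day 19, 9427-fold higher (95% counting interval 2609 to 77850). The 2 genes may share reads, so each is uncertain on its own. 3BHSD, named for the enzyme that makes progesterone from pregnenolone, had no count at day 6 and stood at 71.4, 179 and 57.3 CPM at day 19. Against a floor of 3 counts over the day 6 libraries that is at least 1058-fold higher. SPINK7, a serine protease inhibitor, also had no count at day 6 and was at least 369-fold higher, at 1.36, 93.2 and 13.2 CPM. The choice required every day 19 library to lie above every day 6 library. Day 19 replicate 2 was the highest for each of these genes. Without it the fitted log2 fold changes went from 12.71 to 11.85 for LGALS15, from 12.95 to 12.17 for LGALS16, from 13.00 to 12.33 for 3BHSD and from 11.49 to 9.20 for SPINK7. Without day 6 replicate 1, which held the day 6 counts of both galectins, those of LGALS15 and LGALS16 were 17.28 and 15.55.

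GRP, which encodes gastrin-releasing peptide of the uterine glands, stood at 5.20, 9.37 and 3.31 CPM at day 6 and at 4967, 4198 and 2696 at day 19. Its log2 fold change was 9.37 (SE 0.65, adjusted p = 7.53e-05). CLEC4F, a C-type lectin, went from 1.11, 0.103 and 0.585 CPM to 500, 463 and 360. Its log2 fold change of 9.46 (SE 0.54, adjusted p = 6.53e-05) was 10.24 without day 6 replicate 1. The day 19 libraries of both genes were within 2-fold of each other, replicate 1 included. IGFBP1, a binding protein of insulin-like growth factors, had a single count (1) at day 6 and stood at 15.6, 34.0 and 6.45 CPM at day 19, 582-fold higher (counting interval 104 to 23010). Its fitted log2 fold change of 8.70 was 10.52 without day 6 replicate 1 and 7.95 without day 19 replicate 2. IL1R2, a decoy receptor for interleukin 1, stood at 0.464, 0.206 and 0 CPM at day 6 and at 35.8, 111 and 25.6 at day 19. Its log2 fold change of 7.91 (SE 0.98) was 8.98 without day 6 replicate 1 and 7.01 without day 19 replicate 2.

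**Figure D2:**
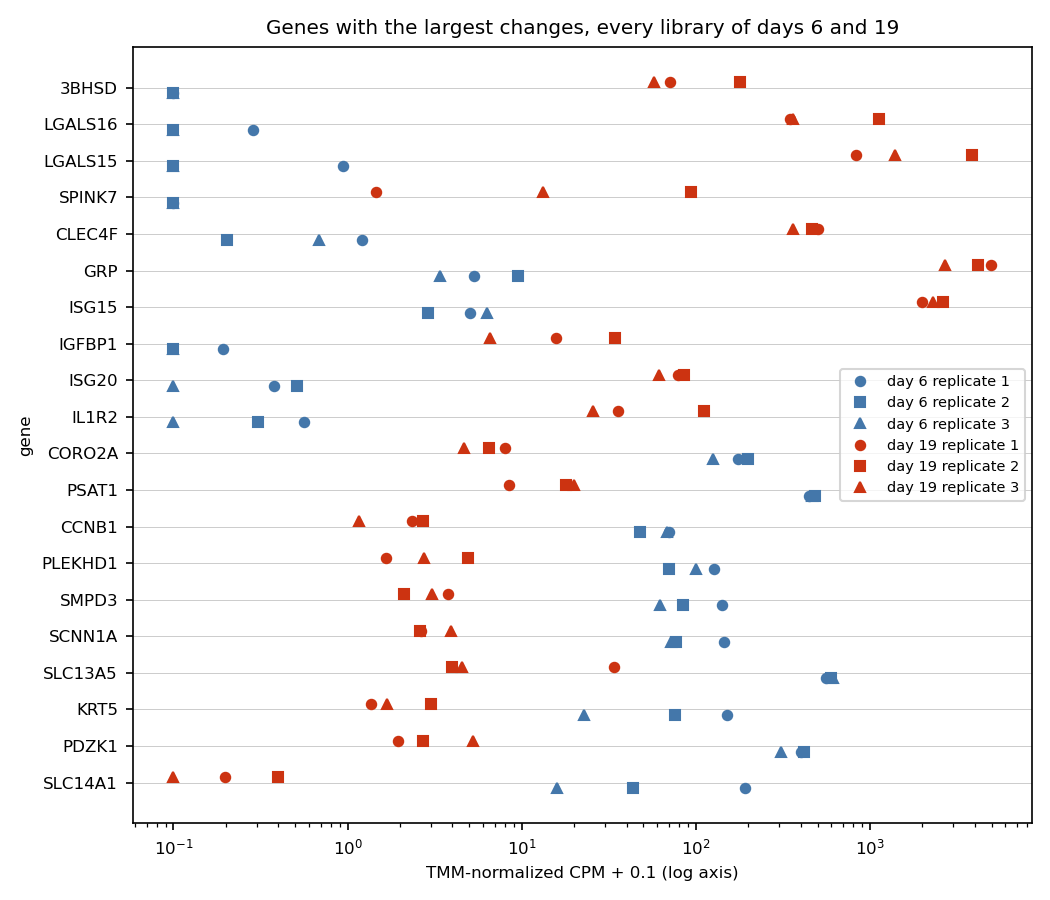
CPM plus 0.1 on a log axis for the 10 rises and 10 falls of largest fitted size, out of called genes with a symbol (locus rows left out) and without overlap between days whose average log2 CPM was 3 or more. Each point is 1 library, blue for day 6 and red for day 19, with the shape giving the replicate. SLC13A5 in day 19 replicate 1 (33.9 CPM) and SPINK7 in replicate 1 (1.36 CPM) lie apart from their day 19 partners.

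The secreted protein and histotroph list had 29 of 38 members tested, of which 17 rose and 1 fell, with a median log2 fold change of 1.55. With day 19 replicate 1 left out, 17 were higher and 2 lower. SERPINA14, the uterine milk protein of the glands, stood at 43.3, 199 and 60.5 CPM at day 6 and at 3921, 1190 and 755 at day 19. Its log2 fold change of 4.28 (SE 0.80, adjusted p = 0.00579) was 3.28 without day 19 replicate 1, the highest library, and 5.24 without day 6 replicate 2. CST6, a cystatin that inhibits cysteine proteases, went from 3.16, 5.87 and 8.48 CPM to 90.3, 229 and 182 (log2 fold change 4.84, SE 0.64). INHBA, the activin A subunit, went from 5.94, 9.88 and 12.2 CPM to 277, 251 and 168 (log2 fold change 4.63, SE 0.39). Neither gene's days overlapped. The other panel genes of this kind did not pass: SPP1, the adhesive phosphoprotein osteopontin, stood at 8.26, 51.3 and 27.8 CPM at day 6 and at 198, 55.6 and 49.4 at day 19 (adjusted p = 0.0784). CTSL, the lysosomal protease cathepsin L, had an adjusted p of 0.17. The uterine gland list (7 of 12 tested) had 4 members higher and 2 lower, or 4 and 3 without day 19 replicate 1. CXCL14, PIGR, SERPINA14 and PAX8 rose. WFDC2, a secreted protein that is also the lower member of the histotroph list, fell by 1.72, a call lost without any one of the day 6 libraries (adjusted p = 0.121, 0.0631 and 0.0512), day 16 replicates 1 and 2 (adjusted p = 0.0506 and 0.0546) and day 19 replicates 2 and 3 (adjusted p = 0.0547 and 0.06). SPDEF, a transcription factor of secretory epithelium, fell from 84.7, 98.5 and 80.6 CPM to 0.874, 6.79 and 12.7, a log2 fold change of -3.70 that was -4.51 without day 19 replicate 3. PIGR, which carries immunoglobulin across epithelium, rose by 5.76 on the log2 scale, or by 5.15 without day 19 replicate 2.

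Few trophoblast markers could be followed by symbol, and their calls went in both directions. Of 31 trophoblast markers on the list, 12 were in the table under their symbols and 7 were tested, of which PLAC8 and TEAD4 rose and PEG10 fell. The list summed to 384 to 424 CPM at day 6, mostly from KRT8 and PEG10, which other uterine cells also express. At day 19 it summed to 403 to 533 CPM, mostly from KRT8 and PLAC8. PLAC8 went from 14.2, 6.49 and 8.68 CPM to 121, 125 and 104, while the calls of TEAD4 and PEG10 were lost without day 6 replicate 1 (adjusted p = 0.0502 and 0.0614) or replicate 3 (adjusted p = 0.0519 and 0.11). PEG10 was also lost without any one of the other libraries except day 19 replicate 1, with adjusted p up to 0.144, and without that library its log2 fold change went from -1.37 to -2.09. Leaving out day 19 replicate 1 gave 3 higher and 2 lower on the list. PAG1, named for a pregnancy-associated glycoprotein, stood at 2.78, 5.66 and 3.61 CPM at day 6 and at 4.66, 0.399 and 0.529 at day 19, and did not pass (log2 fold change -1.09, adjusted p = 0.32). TFAP2C, a transcription factor of trophoblast, did not pass either (log2 fold change -0.70, adjusted p = 0.196), and PRP1, HAND1 and GCM1 stayed below 1 CPM in each of the 6 libraries. The interferon tau genes on the list were not matched by symbol and are not analysed here. HSD3B1, also on the list, was not found by symbol, and the row 3BHSD, which rose as described above, was not counted in its place. A pair of rows chosen after their values were seen is given beside the listed markers. LOC102188515, which the reference describes as similar to trophoblast Kunitz domain protein 1, had no count at day 6 and stood at 28.0, 306 and 90.9 CPM at day 19, at least 1449-fold higher. LOC102177175, described in the same way, stood at 0.371, 0 and 0.0975 CPM at day 6 and at 26.3, 517 and 145 at day 19. Day 19 replicate 2 was the highest and replicate 1 the lowest for both, the order also seen for SPINK7. The part of conceptus RNA in the day 19 rises was not tested.

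Interferon-stimulated genes rose almost without exception. Of 44 members tested, 43 rose against a background of 13.3%, with a median log2 fold change of 4.02, and all 44 had every day 19 library above every day 6 library. Without day 19 replicate 1, 43 were higher. The medians of the 3 day 19 libraries over the mean of day 6 were 4.65, 3.54 and 3.62 on the log2 scale. ISG15, a ubiquitin-like modifier, stood at 4.92, 2.78 and 6.24 CPM at day 6 and at 1989, 2644 and 2289 at day 19 (log2 fold change 8.95, SE 0.59, adjusted p = 7.53e-05). MX1, an antiviral GTPase, went from 43.9, 23.3 and 42.0 CPM to 3323, 2734 and 2415 (log2 fold change 6.28, SE 0.46). In both genes the 3 day 19 libraries lay close together and far above day 6. IFI6, a mitochondrial protein that limits cell death, went from 77.1, 22.0 and 44.2 CPM to 5278, 7861 and 5912. OAS2, which makes the oligoadenylates that activate RNase L, went from 0.835, 0.309 and 1.07 CPM to 163, 74.5 and 59.5. IRF7, the transcription factor that amplifies the response, went from 1.67, 1.65 and 3.02 CPM to 94.8, 101 and 99.3, with the day 19 libraries almost equal. ISG20, an exonuclease, rose by 8.29 on the log2 scale, or by 8.93 without day 6 replicate 2. Members of the OAS and IFIT families may share reads. Some members rose in a less even way, and those given here were chosen after their values were seen. DDX58, the RNA sensor RIG-I, stood at 16.9, 11.02 and 14.6 CPM at day 6 and at 953, 109 and 87.8 at day 19, with replicate 1 far above the other pair. Its log2 fold change of 4.75 was 2.80 without replicate 1. RNF213, a ubiquitin ligase, had the same excess in replicate 1, at 2543, 449 and 419 CPM at day 19, as did SAMD9 (290, 41.7 and 35.5 CPM), EIF2AK2, the RNA-activated kinase PKR (153, 26.4 and 19.1 CPM), and DTX3L (273, 41.3 and 37.9 CPM).

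**Figure D3:**
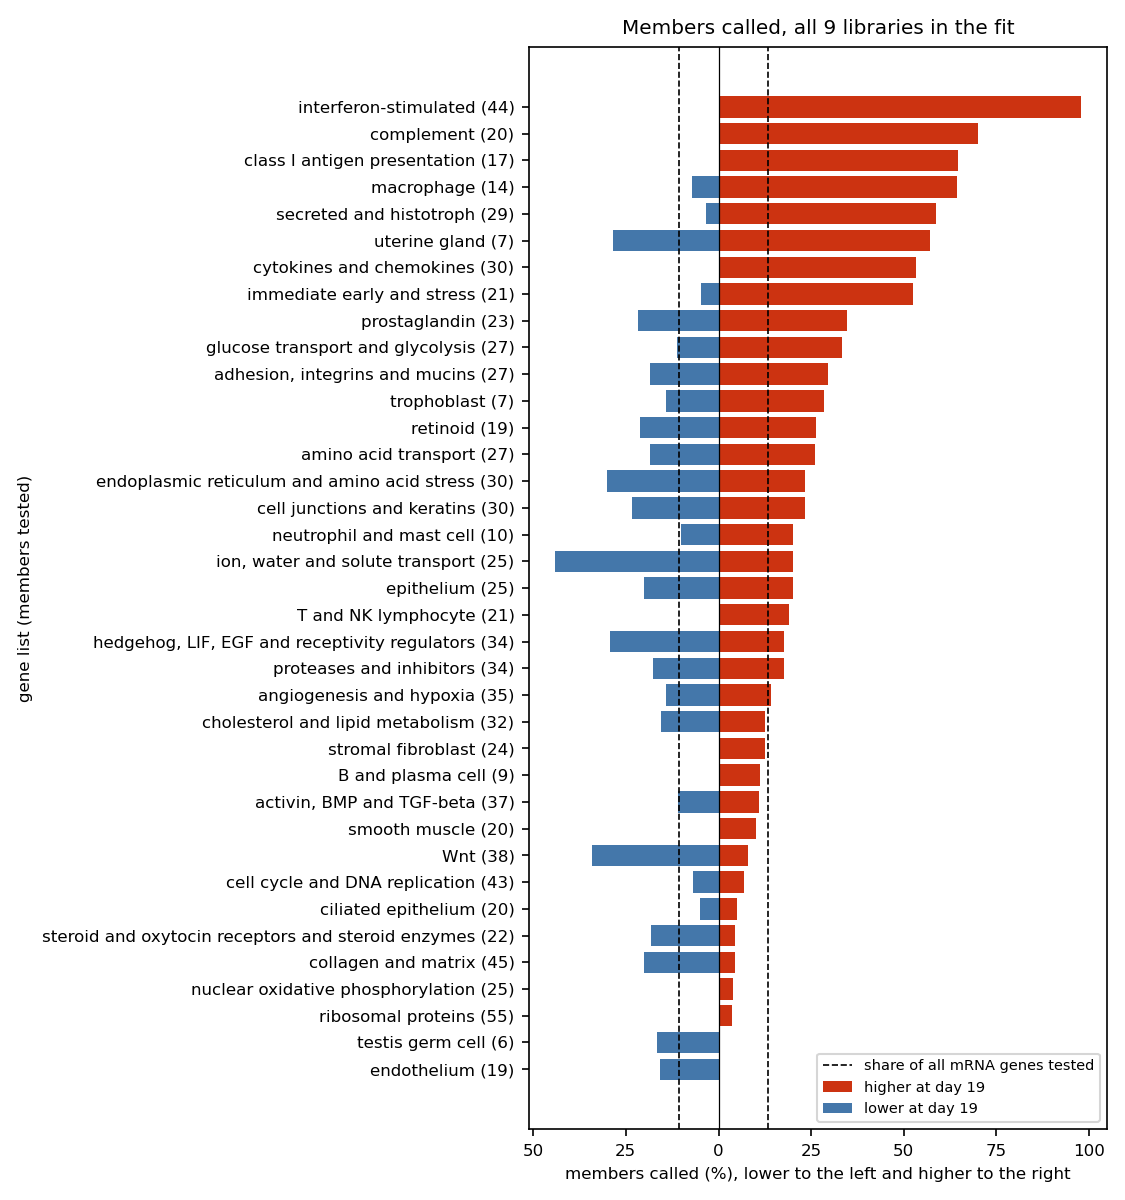
Share of the tested members of each gene list called higher (red, to the right) or lower (blue, to the left) at day 19, in percent, with the number tested in brackets. Dashed lines mark the shares over all mRNA genes tested, 13.3% higher and 10.6% lower, and the interferon-stimulated list has 43 of 44 members higher.

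Genes that cut and load peptides for display on class I molecules rose as well, with 11 of 17 higher and a median log2 fold change of 1.63. Leaving out day 19 replicate 1 gave 12 higher and 2 lower. PSMB9, an immunoproteasome subunit, went from 43.6, 16.5 and 22.9 CPM to 174, 227 and 203 (log2 fold change 2.86, SE 0.37). TAP1, a peptide transporter of the endoplasmic reticulum, went from 69.9, 36.2 and 44.6 CPM to 433, 272 and 339 (log2 fold change 2.79, SE 0.34). The days did not overlap for either gene, nor for PSMB8 and PSMB10, the other called proteasome subunits with the largest rises. Of 20 complement genes tested, 14 rose, with a median log2 fold change of 1.63, and 8 were called without day 6 replicate 2 or without replicate 3. There were 16 higher and 1 lower without day 19 replicate 1. C2, a component of the classical pathway, went from 16.4, 6.59 and 8.48 CPM to 196, 154 and 123 (log2 fold change 3.90, SE 0.48). SERPING1, which inhibits the first component, went from 193, 206 and 197 CPM to 2106, 1271 and 1254 (log2 fold change 2.96, SE 0.43). CFB, of the alternative pathway, and the complement regulator CFI rose by 2.83 and 2.75 on the log2 scale.

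Of 30 cytokine and chemokine genes tested, 16 rose, and 10, 6 and 7 were called without day 6 replicates 1, 2 and 3. Over all genes these fits also called fewer, 2085, 2001 and 1821 against 3474. With day 19 replicate 1 left out, 15 were higher and 1 lower. CXCL14, an epithelial chemokine, stood at 5.85, 2.99 and 3.80 CPM at day 6 and at 280, 260 and 278 at day 19 (log2 fold change 6.01, SE 0.39). The 3 day 19 libraries were nearly equal, and the gene is among those chosen below for a narrow day 19 range. CCL2, which draws monocytes, went from 2.97, 1.75 and 2.73 CPM to 50.6, 33.8 and 31.9 (log2 fold change 3.96, SE 0.28). CXCL11, which draws activated T cells, rose by 4.79. Of the leukocyte marker lists, only that of macrophages had a share of higher members far above the 13.3% over all genes. The T and NK, B and plasma cell, and neutrophil and mast cell lists were not far from the background of 13.3% higher and 10.6% lower. Without day 19 replicate 1, the T and NK counts were below the 27.6% and 28.3% over all genes in that fit. The macrophage list (14 of 19 tested) had 9 members higher and 1 lower, and summed to 1092, 529 and 643 CPM at day 6 and to 1457, 2128 and 1771 at day 19. It had 4 calls without day 6 replicate 2 or 3, 6 without day 19 replicate 2, and 11 higher and 1 lower without day 19 replicate 1. AIF1, a calcium-binding protein of macrophages, went from 16.9, 8.75 and 11.7 CPM to 53.5, 112 and 79.0, and CD14, a receptor for bacterial lipids, from 26.6, 16.8 and 15.7 to 108, 77.1 and 58.7. MRC1, the mannose receptor, fell from 49.2, 18.0 and 29.7 CPM to 9.03, 10.98 and 12.6. Of the T and NK lymphocyte list, 4 of 21 members tested rose, CD7, CD69, CD5 and CD8A, with 2 called without day 6 replicate 2, without day 6 replicate 3 and without day 19 replicate 2, and 4 higher and 3 lower without day 19 replicate 1. It summed to 203 to 244 CPM at day 6 and 262 to 334 at day 19, and CD7 rose by 2.48 on the log2 scale. The B and plasma cell list had 1 of 9 members higher, also without day 19 replicate 1, and the neutrophil and mast cell list had 2 of 10 higher and 1 lower, or 3 and 2 without that library. The B cell call, CD22, was lost without day 6 replicate 2 or 3 (adjusted p = 0.0547 and 0.058). Only GATA2, which fell by 1.34, kept its call in the other list without any one of the day 6 libraries or day 19 replicate 2. The part of leukocyte number in the cytokine and complement calls was not tested.

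Immediate early and stress genes, which respond within minutes to growth factors and to handling, had 11 of 21 members higher and 1 lower, with 7 called without day 6 replicate 1 or 3. Without day 19 replicate 1, 12 were higher and 2 lower. ATF3, a stress-induced transcription factor, went from 2.13, 2.47 and 2.83 CPM to 82.3, 44.0 and 40.1 (log2 fold change 4.48, SE 0.46). JUNB, a partner of FOS in the AP-1 complex, went from 8.17, 4.74 and 7.60 CPM to 40.4, 25.1 and 26.2. Day 19 replicate 1 was the highest library for both, and the 3 day 19 libraries still lay above all of day 6. NR4A2, an orphan nuclear receptor, fell by 1.95.

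Genes of nutrient transport moved in both directions. Of 27 glucose transport and glycolysis genes tested, 9 rose and 3 fell, or 16 and 7 without day 19 replicate 1. SLC5A1, the sodium-driven glucose carrier SGLT1, had 2 counts at day 6 and stood at 4.66, 20.0 and 17.8 CPM at day 19, 215-fold higher (counting interval 59.1 to 1780). ENO2, a glycolytic enolase, went from 145, 99.2 and 124 CPM to 619, 464 and 490, while SLC2A10, a facilitative glucose carrier, fell from 29.6, 38.3 and 33.5 to 7.77, 8.19 and 11.3. Of 27 amino acid transport genes, 7 rose and 5 fell, or 7 and 13 without day 19 replicate 1. SLC7A9, a carrier of cystine and basic amino acids, stood at 0.186, 0 and 0.195 CPM at day 6 and at 40.2, 30.6 and 11.1 at day 19 (log2 fold change 7.58, SE 0.78), and its partner SLC3A1 rose by 3.23. SLC36A2, a proton-coupled carrier of small amino acids, went from 2.60, 4.02 and 4.09 CPM to 51.7, 49.5 and 29.2. SLC1A1, a glutamate carrier, fell by 2.31 (SE 0.29).

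The ion, water and solute transport list had 11 of 25 members lower and 5 higher, the reverse balance, and 12 lower and 6 higher without day 19 replicate 1. PDZK1, a scaffold that holds transporters at the apical membrane, stood at 401, 418 and 307 CPM at day 6 and at 1.85, 2.60 and 5.18 at day 19 (log2 fold change -6.87, SE 0.52, adjusted p = 8.85e-05). SCNN1A, the alpha subunit of the epithelial sodium channel, went from 146, 77.1 and 72.0 CPM to 2.53, 2.50 and 3.81 (log2 fold change -5.06, SE 0.46). The days were far apart for both genes, which were chosen among genes without overlap between days. SCNN1B, the beta subunit of the same channel, moved the other way, from 1.67, 3.50 and 0.682 CPM to 22.4, 32.2 and 19.5, a log2 fold change of 3.66 that was 4.37 without day 6 replicate 2. SLC14A1, a urea carrier, went from 190, 43.6 and 15.9 CPM to 0.0971, 0.3 and 0. Its log2 fold change of -9.15 (SE 1.23) was -7.68 without day 6 replicate 1 and -10.37 without day 19 replicate 2. SLC13A5, a citrate carrier, stood at 563, 594 and 612 CPM at day 6 and at 33.9, 3.89 and 4.44 at day 19, a log2 fold change of -5.38 that was -7.13 without day 19 replicate 1. TRPV6, an epithelial calcium channel, rose by 4.09 (SE 0.43).

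PSAT1 and PHGDH, enzymes of serine synthesis, fell, and the transcription factors ATF4 and DDIT3 rose. The endoplasmic reticulum and amino acid stress list had 7 of 30 members higher and 9 lower, with 8 and 11 without day 19 replicate 1 and 10 called without day 6 replicate 3. PSAT1 stood at 446, 483 and 462 CPM at day 6 and at 8.35, 17.9 and 20.0 at day 19 (log2 fold change -4.91, SE 0.37, adjusted p = 8.85e-05). PHGDH, which acts before it in that path, went from 70.4, 82.7 and 56.0 CPM to 7.38, 15.8 and 12.9. MTHFD2, which passes on the carbon units that serine yields, went from 255, 257 and 258 CPM to 63.2, 52.1 and 38.6. ATF4, the transcription factor that amino acid shortage induces, was higher, at 592, 970 and 1101 CPM against 245, 273 and 267, as were DDIT3 (log2 fold change 2.32) and the pseudokinase TRIB3 (log2 fold change 2.10). For each of these genes the days did not overlap. Of the cholesterol and lipid metabolism list, 4 of 32 members rose and 5 fell, near the background of 13.3% and 10.6%. Without day 19 replicate 1 the counts were 7 and 9, not above the 27.6% and 28.3% over all genes in that fit. There were 4, 5 and 4 calls without day 6 replicate 1, day 6 replicate 3 and day 19 replicate 2. LPL, which releases fatty acids from lipoproteins, fell from 52.0, 44.0 and 47.3 CPM to 8.64, 7.19 and 7.30, and FASN, which makes fatty acids, fell by 1.55.

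Steroid receptors of the sex hormones were lower at day 19 in part. The steroid and oxytocin receptor and steroid enzyme list had 4 of 22 members lower and 1 higher, or 9 and 2 without day 19 replicate 1. HSD3B1 on this list was not found by symbol, and the row 3BHSD, which rose, was not counted in it. ESR1, the estrogen receptor alpha, stood at 805, 736 and 715 CPM at day 6 and at 228, 111 and 163 at day 19 (log2 fold change -2.17, SE 0.29, adjusted p = 0.0011). GREB1, a target of that receptor, went from 116, 90.5 and 94.3 CPM to 9.23, 12.9 and 15.9 (log2 fold change -2.99, SE 0.22). ESR2, the estrogen receptor beta, fell by 2.11, or by 2.87 without day 19 replicate 1. PGR, the progesterone receptor, stood at 30.9, 38.0 and 33.6 CPM at day 6 and at 28.8, 16.7 and 17.6 at day 19. Replicate 1 was close to day 6, the other pair was lower, and the gene did not pass (adjusted p = 0.152). OXTR, the oxytocin receptor, stood at 3.25, 11.2 and 4.29 CPM at day 6 and at 16.7, 3.99 and 4.76 at day 19, so that its fitted log2 fold change of 0.45 (adjusted p = 0.731) was -0.50 without day 19 replicate 1. HSD11B1, which regenerates cortisol, rose from 1.21, 0 and 0.877 CPM to 9.42, 14.6 and 7.09, a log2 fold change of 3.85 that was 4.48 without day 6 replicate 1.

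The prostaglandin list had 8 of 23 members higher and 5 lower, or 10 and 7 without day 19 replicate 1. It had 6 calls without day 6 replicate 1, and 8 when 1 of day 6 replicates 2 and 3, the third day 16 library and the second day 19 library was left out. PTGS2, the inducible cyclooxygenase, stood at 5.01, 2.06 and 2.63 CPM at day 6 and at 69.2, 28.7 and 7.51 at day 19, an uneven rise with replicate 1 the highest (log2 fold change 3.43, SE 0.78, adjusted p = 0.0134). The call was lost with day 6 replicate 2 or 3 left out (adjusted p = 0.0562 and 0.0583), and the log2 fold change was 2.48 without day 19 replicate 1. AKR1B1, which can make prostaglandin F in the ruminant uterus, fell from 274, 304 and 432 CPM to 60.8, 114 and 127, and PTGIR, the prostacyclin receptor, rose from 1.86, 2.16 and 1.95 to 13.0, 8.39 and 9.94. PPARA and PPARD, nuclear receptors of lipid ligands, fell by 1.81 and 1.35.

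Transcripts of IHH, PTCH1, HHIP and GLI1 were lower at day 19. They belong to the hedgehog pathway, through which the epithelium acts on the stroma under progesterone. IHH, the ligand, stood at 235, 264 and 215 CPM at day 6 and at 6.61, 12.7 and 15.3 at day 19 (log2 fold change -4.37, SE 0.38, adjusted p = 0.000148). PTCH1, its receptor and a target of the pathway, went from 292, 288 and 261 CPM to 65.1, 45.0 and 53.1 (log2 fold change -2.36, SE 0.24), and HHIP, which binds the ligand, fell by 2.52. GLI1, a transcription factor and target, went from 101, 81.6 and 90.2 CPM to 3.79, 5.49 and 12.8, a log2 fold change of -3.63 that was -4.28 without day 19 replicate 3. No day 19 library reached day 6 in any of these genes. The whole list, which also holds LIF, EGF family and other receptivity genes, had 10 of 34 members lower and 6 higher, or 17 and 7 without day 19 replicate 1, and 7 lower and 3 higher without day 6 replicate 3. FOXO1, a transcription factor of the secretory uterus, rose from 69.4, 82.2 and 74.5 CPM to 454, 190 and 192, and HBEGF, a growth factor that binds heparin, rose by 1.46. LIF, a cytokine needed for implantation in mice, and HAND2, a progesterone-induced stromal factor, had fitted log2 fold changes of -0.21 and 0.02 that did not pass (adjusted p = 0.821 and 0.971) and that changed sign when single libraries were left out. They ran from -0.60 (without day 19 replicate 1) to 0.56 (without day 6 replicate 1) for LIF, and from -0.23 (without day 19 replicate 2) to 0.38 (without day 6 replicate 1) for HAND2. HOXA10 is not analysed here.

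The Wnt list had 13 of 38 members lower and 3 higher, or 20 and 4 without day 19 replicate 1, and 7 lower and 3 higher without day 6 replicate 3. NKD1, an inhibitor that the pathway itself induces, fell from 25.5, 20.3 and 29.9 CPM to 3.01, 2.00 and 4.02 (log2 fold change -3.07, SE 0.33). LGR5, a receptor for R-spondins, fell from 97.7, 54.9 and 79.1 CPM to 5.05, 4.99 and 13.0, a log2 fold change of -3.33 that was -3.93 without day 19 replicate 3. DKK1, which blocks Wnt co-receptors, rose from 21.3, 58.4 and 39.3 CPM to 981, 419 and 427 (log2 fold change 3.94, SE 0.64), and the ligand WNT4 rose by 2.56. WNT7A, an epithelial ligand, had counts at the low end, at 7.80, 2.47 and 3.22 CPM against 1.65, 0.499 and 0.317. Its call (adjusted p = 0.0447) was lost without any one of the other libraries except day 19 replicate 1 and day 16 replicate 3, with adjusted p up to 0.172, and its log2 fold change went from -2.42 to -3.41 without day 19 replicate 1. Of the activin, BMP and TGF-beta list, 4 of 37 rose and 4 fell, near the background, or 7 and 15 without day 19 replicate 1. It had 4, 3 and 4 calls without day 6 replicate 2, day 6 replicate 3 and day 19 replicate 2. BMP1, a protease that matures collagen, fell from 358, 226 and 233 CPM to 60.8, 59.6 and 100.

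Adhesion and junction genes changed in both directions. Of 27 adhesion, integrin and mucin genes, 8 rose and 5 fell, or 7 and 10 without day 19 replicate 1. MUC1, a large mucin of the lining, rose from 2.97, 1.44 and 1.46 CPM to 7.67, 23.6 and 14.5 (log2 fold change 2.95, SE 0.49). ITGA2 and ITGA6, integrin subunits that bind collagen and laminin, fell by 3.54 and 1.90. Of 30 junction and keratin genes, 7 rose and 7 fell, or 12 and 12 without day 19 replicate 1, and 8 and 6 were called without day 6 replicates 2 and 3. KRT5, a basal keratin, went from 150, 76.1 and 22.7 CPM to 1.26, 2.90 and 1.59, a log2 fold change of -5.43 that was -4.70 without day 6 replicate 1. Its usual partner KRT14 moved the other way, from 2 counts in all at day 6 to 6.61, 9.59 and 8.15 CPM. GJB1, a gap junction protein, fell from 33.0, 20.1 and 23.9 CPM to 0.68, 2.80 and 3.60. DSG2 and DSP, of the desmosome, fell by 1.92 and 1.70. Of the epithelial markers, 5 rose and 5 fell, or 13 and 6 without day 19 replicate 1. ST14, a membrane protease, fell from 514, 507 and 481 CPM to 136, 221 and 205, and MAL2, of apical transport, rose from 9.37, 5.25 and 4.29 to 131, 86.5 and 51.8. Epithelial markers thus did not move as a block.

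The collagen and matrix list had 9 of 45 members lower and 2 higher, or 23 and 3 without day 19 replicate 1, and DESeq2 called 14 lower and 3 higher. COL7A1, the anchoring fibril collagen, went from 20.7, 11.1 and 11.5 CPM to 0.874, 0.0998 and 0, a log2 fold change of -5.39 that was -7.82 without day 19 replicate 1. COL4A3 and COL4A4, basement membrane chains, fell by 4.82 and 4.38, or by 4.09 and 3.59 without day 6 replicate 1. ELN and COL18A1, elastin and a collagen of basement membranes, rose by 1.38 and 1.07. Of 34 proteases and inhibitors, 6 rose and 6 fell, or 10 and 9 without day 19 replicate 1. The counts without that library are near the 27.6% and 28.3% over all genes in that fit. ADAM12, a membrane protease, fell from 137, 94.0 and 108 CPM to 14.0, 10.5 and 13.9 (log2 fold change -3.14, SE 0.22), MMP2, which degrades basement membrane collagen, fell by 1.28, and PLAUR, the urokinase receptor, rose from 5.20, 5.15 and 4.97 to 26.7, 27.4 and 19.1. The days were separate for these proteases. Of 24 stromal fibroblast markers, which include the abundant fibrillar collagens, 3 were higher, near the background of 13.3%. Without day 19 replicate 1, 5 were higher and 5 lower, below the 27.6% and 28.3% over all genes in that fit.

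Of 43 cell cycle and DNA replication genes, 3 rose and 3 fell, a share below the background. Without day 19 replicate 1 the counts were 6 and 9, also below the 27.6% and 28.3% over all genes in that fit. DESeq2 called 3 higher and 7 lower. CCNB1, a cyclin that drives mitosis, fell from 69.8, 47.9 and 68.4 CPM to 2.23, 2.60 and 1.06 (log2 fold change -4.97, SE 0.37, adjusted p = 8.64e-05). CCNB2, the other B-type mitotic cyclin, went the opposite way, from 4.18, 0.721 and 2.92 CPM to 12.5, 17.8 and 15.2 (log2 fold change 2.53, SE 0.52, adjusted p = 0.00851). CDKN1A, the cyclin-dependent kinase inhibitor p21, rose from 14.6, 15.9 and 15.9 CPM to 66.7, 57.0 and 47.3. Each of the 3 genes had separate days. CCND1, the cyclin of the G1 phase, fell by 0.88.

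The angiogenesis and hypoxia list had 5 of 35 members higher and 5 lower, near the background of 13.3% and 10.6%. It had 7 and 15 without day 19 replicate 1, where the shares over all genes were 27.6% and 28.3%. DESeq2 gave 7 and 9, and 6 were called without day 6 replicate 3 or day 19 replicate 2. EPAS1, a hypoxia-inducible factor, rose from 256, 199 and 226 CPM to 1008, 845 and 574, and ADM, a vasodilator peptide, rose by 1.56. FLT1, a receptor for vascular endothelial growth factor, fell from 54.2, 36.3 and 45.6 CPM to 18.8, 13.1 and 10.3, and APLN, a vascular peptide, fell by 2.61. VEGFA, the growth factor itself, had a fitted log2 fold change of -0.25 (adjusted p = 0.528), which was 0.09 without day 6 replicate 1. Of 19 endothelial markers, FLT1, EMCN and TIE1 fell, with a single call (1) left without any one of day 6 replicates 1 and 3 and day 19 replicate 3. Without day 19 replicate 1, 1 was higher and 6 were lower, near or below the 27.6% and 28.3% over all genes in that fit. The endothelial markers summed to 1301 to 1726 CPM at day 6 and 1094 to 1303 at day 19. The retinoid list had 5 of 19 members higher and 4 lower, or 6 and 4 without day 19 replicate 1. The retinoid counts without that library are also near or below the shares over all genes. Leaving out day 6 replicate 1, 2 or 3 gave 5, 4 and 3 calls, and leaving out day 19 replicate 2 or 3 gave 4 and 5. ALDH1A1, which makes retinoic acid, fell from 496, 417 and 537 CPM to 138, 220 and 194, and RARRES2, the chemerin precursor, rose from 160, 90.4 and 114 to 346, 672 and 436. Other marker lists gave few calls. These were 1 higher and 1 lower of 20 for ciliated cells (TUBB4B, DNAH9), DES and SMTN of 20 smooth muscle markers, WT1 of 2 for Sertoli and Leydig cells, 1 higher and 1 lower of 3 for mesothelium and oviduct, and ODF2 of 6 for germ cells, and the last 3 of these lists had the same counts without day 19 replicate 1. Without that library the ciliated and smooth muscle lists had 2 higher and 3 lower, and 4 higher and 3 lower. These are below the shares over all genes in that fit. DES, SMTN, WT1 and ODF2 all lost their call without day 6 replicate 3 (adjusted p = 0.0512, 0.0817, 0.0758 and 0.117), and the last 3 of these also without day 6 replicate 1 (adjusted p = 0.0904, 0.0876 and 0.0931). SMTN and ODF2 kept theirs only without day 19 replicate 1, of the libraries left out in turn (adjusted p from 0.0589 to 0.135 without any one of the others). PKHD1L1, the lower gene of the mesothelium and oviduct list, was also lost without day 6 replicate 3 (adjusted p = 0.0572).

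Each day 19 library was then set on its own against the 3 day 6 libraries, as a description with no test. At least 2-fold above the day 6 mean (log2 CPM, prior count 2) were 1642 genes in replicate 1, 2281 in replicate 2 and 2172 in replicate 3, and at least 2-fold below were 1710, 2987 and 2926. The standard deviation of this difference over genes was 1.18, 1.39 and 1.32. Replicate 1 lay above all 3 day 6 libraries in 39.4% of genes and below in 37.2%, replicate 2 in 41.3% and 42.8%, and replicate 3 in 41.4% and 42.3%. Replicates 2 and 3 were both above in 36.2% and both below in 37.4%. Replicate 1 thus had fewer genes far from day 6 than the other pair, and almost as many outside its range.

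In 2779 genes (19.1%) replicate 1 lay outside the day 6 range on one side and both other day 19 libraries on the opposite side, with replicate 1 above in 1489 (10.2%) and below in 1290 (8.88%). The same position of replicate 2 was found in 132 genes (0.908%), above in 0.392% and below in 0.516%, and that of replicate 3 in 186 (1.28%), above in 0.709% and below in 0.571%. Of the 4737 genes called only without day 19 replicate 1, 1945 had replicate 1 on the opposite side, and 4 of the 3474 called genes did. The ribosomal protein list shows this position most widely of the lists. In 44 of its 55 members replicate 1 was below day 6 and the other pair above, and its medians over the day 6 mean were -0.51, 0.97 and 0.79 in the 3 libraries. Ribosomal proteins had 2 members called higher, RPS9 and RPS28, and 48 without day 19 replicate 1. Both calls were lost without any one of the day 6 libraries or of the other day 19 libraries (adjusted p from 0.0602 to 0.0954), and DESeq2 called 11 members. RPS9 stood at 304, 367 and 364 CPM at day 6 and at 412, 1481 and 1188 at day 19. The nuclear oxidative phosphorylation list had replicate 1 below and the others above in 14 of 25 members. It had 1 member called higher (NDUFB9, at 50.0, 52.8 and 51.9 against 79.9, 199 and 188 CPM), and 20 higher and 1 lower without day 19 replicate 1. The reverse position, replicate 1 above and the others below, was found in 10.2% of all genes tested, in 9 of 37 members of the activin, BMP and TGF-beta list, in 6 of 35 of the angiogenesis and hypoxia list and in 6 of 38 of the Wnt list.

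**Figure D4:**
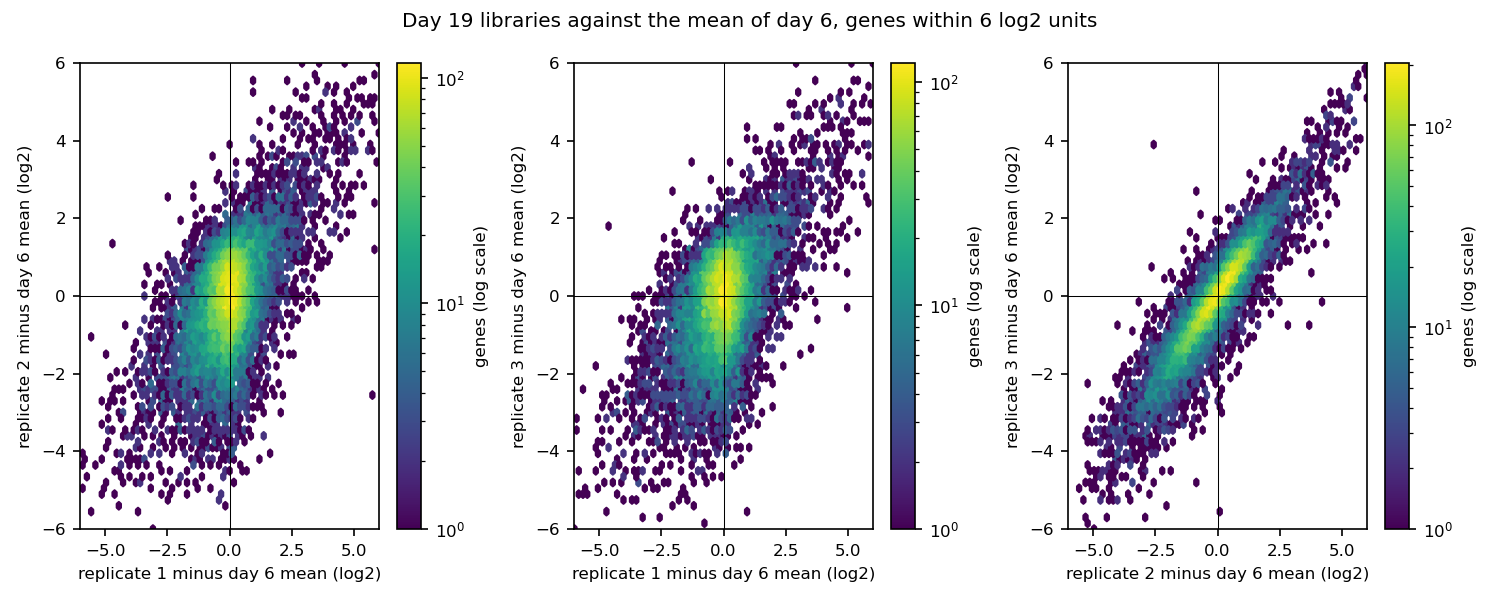
Log2 CPM difference of each day 19 library from the day 6 mean, plotted for each pair of day 19 libraries, with colour giving the number of genes per hexagon on a log scale. Replicates 2 and 3 fall along a diagonal, whereas against replicate 1 many genes lie in the upper left and lower right parts of the panel.

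Among well expressed genes, those in which replicate 1 differed most from the other pair were large shifts. MXRA5, a matrix remodelling protein, stood at 170, 313 and 195 CPM at day 6, at 193 in day 19 replicate 1 and at 5.19 and 17.5 in replicates 2 and 3. ANTXR1, a collagen-binding receptor, had the same pattern, at 107, 173 and 132 CPM, then 117, 5.59 and 12.2. PI15, a secreted protease inhibitor, stood at 68.5, 39.0 and 54.8 CPM at day 6 and at 30.6, 0.399 and 0.74 at day 19. In these genes replicate 1 lay at or near the day 6 level and the others far below it. SLC18A2, the vesicular monoamine carrier, differed in that replicate 1 alone was high, at 150 CPM against 11.6 and 5.29 in the other pair and 17.8, 8.44 and 15.0 at day 6. N4BP1, an endoribonuclease, stood at 34.4, 40.9 and 37.6 CPM at day 6, at 147 in replicate 1 and at 8.09 and 8.46 in the other pair, on both sides of day 6. In the other direction, GNLY, the cytolytic protein granulysin, stood at 28.6, 33.4 and 5.17 CPM at day 6, at 5.93 in replicate 1 and at 105 and 85.4 in the other pair. ASIP, the agouti signalling protein, stood at 40.0, 20.0 and 0.292 CPM at day 6 and at 14.4, 122 and 116 at day 19. None of these 7 genes was called with all libraries in the fit (adjusted p from 0.159 to 0.692). Replicates 2 and 3 differed less from each other. Genes in which replicate 2 or 3 differed most from the mean of the other pair, replicate 1 included, were also picked. Among them were SLC39A2, a zinc carrier, at 16.9, 143 and 27.4 CPM, and MUC16, a mucin, at 59.4, 49.7 and 6.56. MUC16 rose by 5.75 on the log2 scale, or by 7.19 without day 6 replicate 1, whereas SLC39A2 lost its call (adjusted p = 0.0213) without any one of the day 6 libraries (adjusted p = 0.0629, 0.0806 and 0.0723) or day 19 replicate 2 (adjusted p = 0.067).

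**Figure D5:**
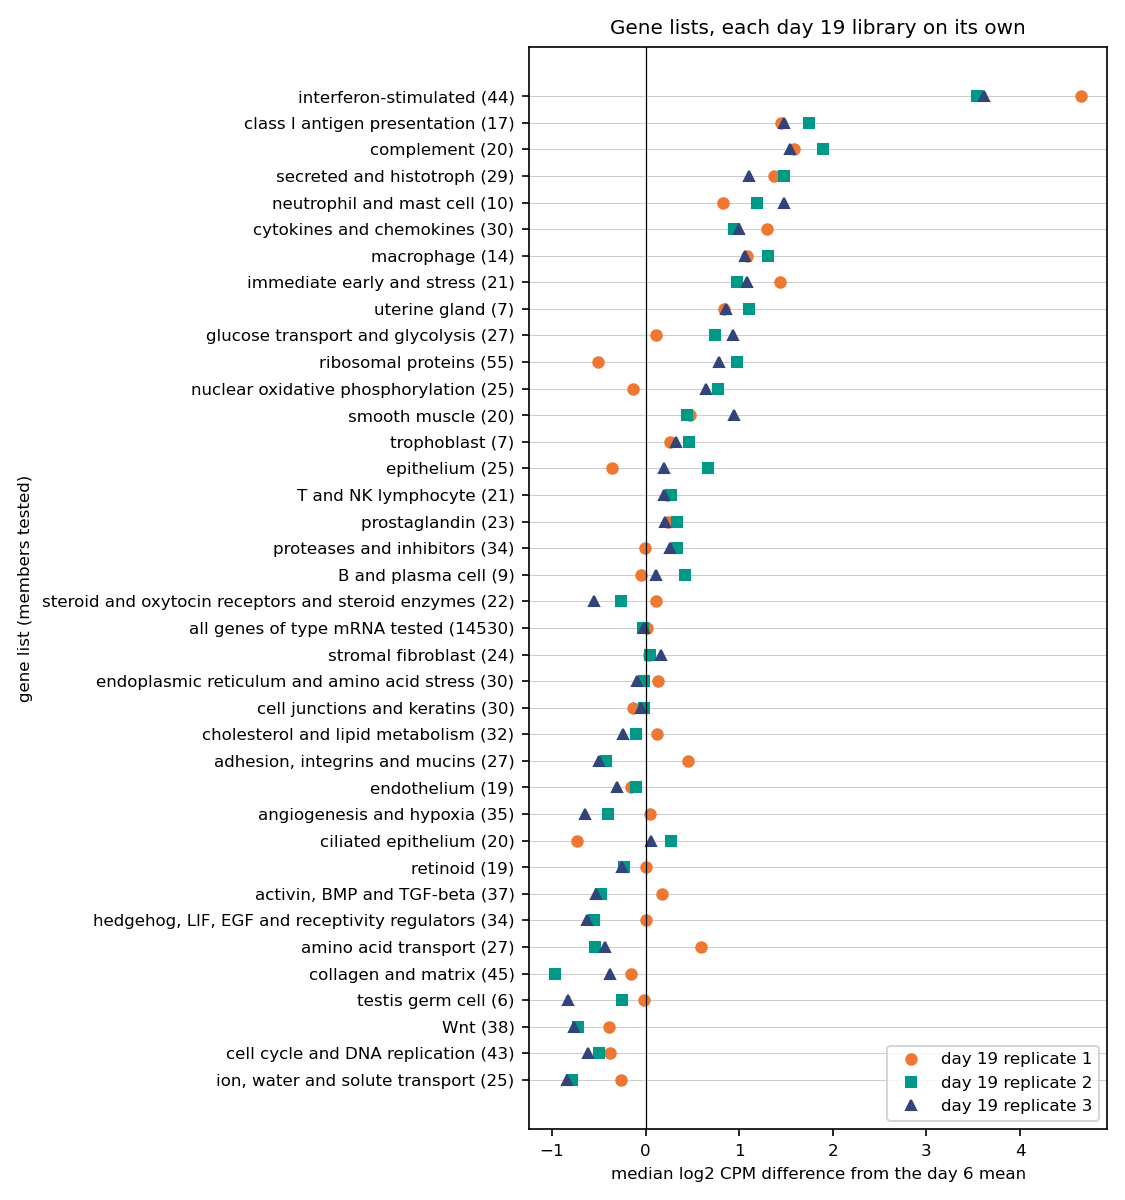
Median log2 CPM difference from the day 6 mean of each gene list, for day 19 replicate 1 (orange circles), 2 (green squares) and 3 (blue triangles), with the number of members tested in brackets. For ribosomal proteins replicate 1 lies at -0.51 and the others at 0.97 and 0.79, and for interferon-stimulated genes all 3 lie between 3.54 and 4.65.

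Other genes were almost equal in the 3 day 19 libraries. The choice was among called genes with a symbol, a log2 fold change of 2 or more in size and average log2 CPM of 3 or more. There the rises with the narrowest day 19 range were those of CXCL14, ANXA3, IRF7, ALOX12, LGALS3BP and B3GNT3. The falls with the narrowest range were those of GDPD1, MOCOS, TMEM252, PRR5L, SYBU and HEPACAM. ANXA3, a membrane-binding annexin, stood at 40.7, 35.3 and 17.0 CPM at day 6 and at 173, 165 and 171 at day 19. LGALS3BP, a secreted galectin ligand, stood at 89.5, 65.7 and 74.7 CPM against 468, 462 and 425. PRR5L, a binding partner of the mTORC2 kinase complex, fell from 80.8, 91.0 and 80.8 CPM to 8.84, 8.39 and 9.20 (log2 fold change -3.26, SE 0.19, adjusted p = 6.53e-05). TMEM252, a transmembrane protein, fell from 41.1, 29.4 and 34.3 CPM to 1.46, 1.50 and 1.38. These genes were chosen for a narrow day 19 range, so replicate 1 lies near the other pair in them by that choice.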

How the data were processed

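Poly(A) RNA from Trizol extracts was cut with RNase III and ligated to adaptors for Ion Torrent sequencing, per the labels' protocols. The file deposited by the authors holds raw counts, whole numbers for each gene and library. How reads were aligned and counted, on which build and with or without strand, is not given in the sources used here, so overlapping genes and close relatives are uncertain one by one. Symbols came from the table, and 464 of 9672 locus rows took one from RefSeq genes of assembly ARS1.2, in which 23027 rows had their identifier.

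The test was that of edgeR 4.0.16 (R 4.3.3): TMM scaling, filterByExpr by day, a robust quasi-likelihood fit to all 9 libraries with day as the only term, and Benjamini-Hochberg adjustment over 16098 genes. The common biological coefficient of variation was 0.318. The standard error (SE) was derived as the size of the log2 fold change over the root of its F statistic, and is approximate for genes with few counts. Log2 CPM used a prior count of 2. Ratios for genes with 1 to 3 day 6 counts have 95% intervals, and a day 6 total of 0 counts was replaced by a floor of 3 (group total). Both cover counting error only. No library pair of a day agreed within sampling noise (lowest chi-square per degree of freedom 9.86). The fit was also run on simulated counts with known changes, a single spread for all genes and no library set apart. It thus does not show how the fit behaves with a library such as day 19 replicate 1.

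The members and lists were chosen with earlier results of these data known. Genes named are up to 10 per direction of largest change among rows with a symbol (locus rows left out), a panel of 25, up to 4 per direction per list, those in which 1 day 19 library differed most from the other pair, and those most alike at day 19. EPCAM, DDX58, PTCH1, RNF213, SAMD9, EIF2AK2, DTX3L, PAG1, TFAP2C, PRP1, HAND1, GCM1, the germ cell and FSHR markers and the 2 locus rows fall outside this rule and were chosen after their values were seen. Alternatives were DESeq2 1.42.0, limma 3.58.1 voom with quality weights, RLE and upper quartile scaling, no filter, a filter of 1 CPM in 6 libraries, no robust estimation, 6 libraries, a replicate block, and leaving out each library.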

Additional observations from a re-analysis of the deposited data

How the results depend on the processing

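The count of mRNA genes called at day 19 against day 6 was 3474. It was 8722 with limma voom and quality weights, 2223 with only the 6 libraries of these days and 1220 when a replicate block was added to those. It stayed within 1.5 times with DESeq2 (4640), RLE scaling (3471), upper quartile scaling (3415), no filter (3305), the stricter filter (3267), no robust estimation (3519) and the replicate block on 9 libraries (2736). Without 1 library the count ran from 1821 (without day 6 replicate 3) to 8242 (without day 19 replicate 1), and the cause of these shifts was not tested. The share of higher genes among the calls was 55.6%, and 48.9% with upper quartile scaling.

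Whether the replicate numbers pair the samples cannot be told. Same-numbered day 6 and day 19 libraries deviated from their day means with correlations of -0.141, -0.164 and -0.0585. Differently numbered libraries had correlations from -0.0663 to 0.2. Deviations from a day mean cancel out within the day, which ties these values together, so they do not settle the question. The block kept 2651 of the 3474 calls.

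Of 214 named genes called, DESeq2 kept the 213 it gave a value, RLE scaling 214, voom 213, the 6-library fit 179 of 212, the replicate block 196, the block with the 6 libraries 151 of 212, and leaving out 1 library between 163 (day 6 replicate 3) and 213 (day 19 replicate 1). None of these reversed. Among panel genes that were not called, OXTR (log2 fold change 0.45) turned to -0.237 with voom and ran from -0.496 (day 19 replicate 1 left out) to 1.17 (day 6 replicate 2 left out). HAND2 (0.02) turned to -0.0448 with upper quartile scaling and ran from -0.23 to 0.378 with 1 library left out. LIF (-0.21) ran from -0.601 to 0.56, and VEGFA (-0.25) turned to 0.0388 with voom and ran from -0.397 to 0.091. Genes with few counts, such as FOSL1 or IGFBP1, are limited by depth. The counts of genes on one side of day 6, 5777 and 2779, were 5767 and 2769 with RLE scaling, 5777 and 2779 with a prior count of 0.5, and 5434 and 2740 with the stricter filter.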

Other observations

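The genes of the mitochondrial genome are typed in the table as other than mRNA and so stand outside the comparison. Of 13, 7 were lower at day 19 and none higher in edgeR's quasi-likelihood test, with a median log2 fold change of -1.20. They took 2.91%, 3.00% and 3.27% of the counts in day 6 replicates 1 to 3 and 0.639%, 1.54% and 1.34% at day 19, with replicate 1 the lowest. ND5, a subunit of respiratory complex I, stood at 2188, 2360 and 2272 CPM at day 6 and at 348, 563 and 567 at day 19 (log2 fold change -2.21, SE 0.25, adjusted p = 0.00048). ND4L, a smaller subunit of the same complex, fell by 2.84 on the log2 scale, from 215, 255 and 247 CPM to 41.9, 30.5 and 27.4. Both were chosen after their values were seen.

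Rows of other types were called too. Of 1178 ncRNA rows, 87 had higher and 77 had lower counts at day 19, and of 358 miscRNA rows 25 had higher and 14 had lower counts. Of 12 miRNA rows tested, 3 were higher. The libraries were made from poly(A) RNA.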
